A study of Mus musculus with 9 samples.

Results

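Smooth muscle actin and contractile genes code for the thin filaments of smooth muscle cells and for the proteins that brace and drive them. The set described here holds 9 genes of the 33495 listed: Acta2, Actg2, Tagln, Cnn1, Myl9, Cald1, Tpm1, Tpm2 and Actn1. They were chosen by symbol, with their levels in these same libraries in view, so their values are given as a description and without p-values of their own. All 9 passed the filter on low counts, as did 13996 genes in all. RF8, a line of mouse embryonic stem (ES) cells, carried one of 3 constructs: Nanog L122A (L122A), wild-type Nanog (WT) or, as the control, enhanced green fluorescent protein (EGFP). Nanog is a homeodomain transcription factor of pluripotent cells, and the series title places L122A among homeodomain mutants. Each transfectant was grown with 5 µM retinoic acid (RA) and no leukaemia inhibitory factor (LIF), without LIF and without RA (no-LIF), or with LIF at 1000 units per ml. LIF is a cytokine that sustains self-renewal of mouse ES cells and RA is a vitamin A derivative that starts their differentiation. Routine culture, with LIF, held 15% fetal calf serum and puromycin at 2 µg for the 3 transfectants alike. Serum and puromycin are not given for the RA and no-LIF cultures. The labels give no independently derived lines of a construct and no time in culture, and each combination of transfectant and culture is 1 library, 9 in all.

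Smooth muscle contracts when myosin slides along filaments built partly of the smooth muscle actins, and phosphorylation of the myosin regulatory light chain switches the motor on. Many genes of this machinery carry CArG boxes, binding sites of serum response factor (SRF) in their promoters. SRF works there with myocardin in smooth muscle, or with myocardin-related transcription factors (MRTFs) that respond to the state of actin in many other cells. Acta2 and Tagln are early markers of the smooth muscle lineage and are also expressed by myofibroblasts and by other cells under tension, whereas Myh11 is a more restricted marker of mature smooth muscle.

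Total gene counts ran between 24166395 and 28714988 per library. Levels are library-scaled read counts (CPM) after trimmed-mean (TMM) normalization, with factors between 0.810 and 1.255. Nanog itself stood at 259 CPM in L122A RA, 195 CPM in WT RA and 0.873 CPM in EGFP RA. It lay between 130 and 385 CPM in the 6 other libraries, where EGFP had the highest value of each culture. How far transcripts of the transgene count towards Nanog is not stated. The 9 genes together took 0.232%, 0.383% and 1.37% of all counts in L122A, WT and EGFP with RA. They took 0.0239%, 0.0256% and 0.416% without LIF, and 0.0268%, 0.0160% and 0.106% with LIF, in the same order of transfectants. Because each library is a bulk sample, fewer cells of a type and less RNA per cell cannot be told apart.

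The promoters of the set were read for CArG boxes. The 300 bases from 250 before to 50 after the start in RefSeq (build GRCm38.p6) were searched for the CArG box, with its core of 6 A or T bases complete or with 1 other base. Windows were at hand for 7 of the 9 genes (8 windows), not for Actg2 and Tagln. Among those 7, matches were found for Acta2 and Myl9, and for Myl9 alone one with a complete core. A complete match was present in 1.63% of 32851 promoter windows, and one with at most 1 other core base in 9.98%. Both stretches are shown because they carry the sequence class through which this gene set is best known, with the matches in capitals. The Acta2 stretch is chr19:34255383-34255472 on the minus strand, from base -99 to -10, with matches starting at -84 and -34. The Myl9 stretch is chr2:156775288-156775389 on the plus strand, from base -176 to -75, with the complete match at -161 and one with 5 of 6 core bases at -99.
Acta2: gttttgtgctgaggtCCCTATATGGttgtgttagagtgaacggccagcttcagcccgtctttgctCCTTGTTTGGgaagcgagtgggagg
Myl9: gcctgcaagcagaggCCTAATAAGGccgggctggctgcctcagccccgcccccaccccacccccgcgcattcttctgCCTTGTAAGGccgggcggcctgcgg
No binding was measured here, so a match describes the letters alone.

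Acta2 codes for the alpha actin of vascular smooth muscle (ENSMUSG00000035783, mm9 chromosome 19, 34316013 to 34329810, minus strand). With RA it stood at 73.1 CPM in L122A, 393 CPM in WT and 3611 CPM in EGFP. Without LIF it stood at 1.22, 2.41 and 245 CPM, and with LIF at 0.904, 1.33 and 120 CPM, in the same order of transfectants. The 3 EGFP libraries and the 2 Nanog libraries with RA therefore held at least 73.1 CPM, and the 4 Nanog libraries without RA at most 2.41 CPM. L122A RA was 49.4-fold lower than EGFP RA (95% interval 47.5 to 51.4), and WT RA was 9.19-fold lower (9.02 to 9.36). L122A no-LIF was 201-fold lower than EGFP no-LIF (135 to 314), and WT no-LIF was 102-fold lower (78.6 to 134). In EGFP RA, Acta2 reached 3031.87 FPKM (counts scaled to gene length and library size), a level above that of 99.94% of the genes tested. These intervals, and those below, are exact and cover counting error only, not the choice of scaling.

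Actg2 codes for the gamma actin of visceral smooth muscle (ENSMUSG00000059430, chromosome 6, 83462898 to 83486259, minus strand) and was the lowest of the 9 genes per length in EGFP RA, at 54.2 FPKM. With RA it stood at 2.70 CPM in L122A, 4.04 CPM in WT and 75.8 CPM in EGFP. Without LIF it had 1 count in L122A, 4 in WT and 48 in EGFP, and with LIF 0, 6 and 35 counts. EGFP RA thus stood apart from the other libraries, of which WT RA was the next. A count of 0 in L122A LIF has an exact upper limit of 0.167 CPM. The exact lower limit for L122A RA over L122A LIF was 15.9-fold. EGFP RA was 64.6-fold higher than EGFP LIF (46.3 to 93.0).

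The coding sequences of the actins are close to each other, and the way shared reads were counted is not given in the sources used here, so the split between actin genes is uncertain. In the GENCODE M21 transcripts Actg2 was identical to Acta2 at 84.2% of coding positions and the longest identical run was 29 bases. The nonmuscle actins Actb and Actg1 were identical to Acta2 at 82.8% and 81.5%, with runs of 47 and 56 bases. The first 60 coding bases of Acta2 and the first 57 of Actg2 are shown, because they let the pair be told apart: capitals mark the bases that differ, 8 mismatches and 3 bases that Actg2 lacks.
Acta2 coding start, chromosome 19: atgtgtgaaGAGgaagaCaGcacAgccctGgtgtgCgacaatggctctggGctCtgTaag
Actg2 coding start, chromosome 6: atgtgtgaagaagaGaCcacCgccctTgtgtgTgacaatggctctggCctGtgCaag

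Tagln codes for transgelin (SM22-alpha), an actin-bundling protein of smooth muscle (ENSMUSG00000032085, chromosome 9, 45737710 to 45743981, minus strand). Its RA libraries held 59.9 CPM in L122A, 205 CPM in WT and 1100 CPM in EGFP. The levels without LIF were 9.38, 10.8 and 707 CPM, and those with LIF 5.29, 4.93 and 111 CPM. EGFP no-LIF was high for this gene: it was 6.38-fold above EGFP LIF (6.15 to 6.62), and EGFP RA was 1.56-fold above EGFP no-LIF (1.53 to 1.58). The 4 Nanog libraries without RA held at most 10.8 CPM.

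Cnn1 codes for calponin 1, an actin-binding inhibitor of the myosin ATPase in smooth muscle (ENSMUSG00000001349, chromosome 9, 21903724 to 21914074, plus strand). Its levels with RA were 15.5 CPM in L122A, 52.1 CPM in WT and 299 CPM in EGFP. Without LIF it stood at 4.11, 7.48 and 106 CPM, and with LIF at 3.39, 2.51 and 10.7 CPM. EGFP no-LIF lay 9.84-fold above EGFP LIF (8.77 to 11.1), the largest such ratio among the 9 genes, against 1.21-fold in L122A (0.874 to 1.68) and 2.98-fold in WT (2.17 to 4.14).

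Cald1 codes for caldesmon, which ties actin to myosin and restrains the motor, and its gene-level count merges the smooth muscle and nonmuscle isoforms (ENSMUSG00000029761, chromosome 6, 34548499 to 34725473, plus strand). In RA cultures it measured 847 CPM in L122A, 888 CPM in WT and 1827 CPM in EGFP. Cultures without LIF held 99.9, 54.7 and 688 CPM, and those with LIF 116, 67.4 and 205 CPM. Cald1 had the narrowest gap with RA: L122A RA was 2.16-fold lower (2.13 to 2.19) and WT RA 2.06-fold lower (2.03 to 2.09) than EGFP RA, and the L122A and WT libraries lay within 1.05-fold of each other.

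Tpm1 and Tpm2 code for the alpha and beta tropomyosins, coiled coils that lie along actin filaments. Tpm1 (ENSMUSG00000032366, chromosome 9, 66870396 to 66897213, minus strand), whose count likewise merges muscle and nonmuscle isoforms, stood at 662 CPM in L122A RA, 1300 CPM in WT RA and 4087 CPM in EGFP RA. Its levels were 121, 121.8 and 2216 CPM without LIF and 94.4, 71.0 and 430 CPM with LIF. L122A and WT without LIF agreed to within 1.01-fold, and were 18.4-fold and 18.2-fold below EGFP no-LIF. The closeness of these 2 libraries depended on the scaling. In FPKM, Tpm1 without LIF stood at 15.04 in L122A, 17.62 in WT and 332.19 in EGFP. Tpm2 (ENSMUSG00000028464, chromosome 4, 43527582 to 43536637, minus strand) stood at 91.3, 121.6 and 597 CPM with RA, 43.1, 47.4 and 181 CPM without LIF, and 35.8, 27.4 and 68.4 CPM with LIF. EGFP was the highest of each culture, and the lowest library was WT LIF.

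Myl9 codes for the regulatory light chain of smooth muscle myosin, the subunit phosphorylated by myosin light chain kinase (ENSMUSG00000067818, chromosome 2, 156601155 to 156607394, plus strand). With RA it stood at 49.0 CPM in L122A, 90.6 CPM in WT and 406 CPM in EGFP. Without LIF it stood at 5.02, 9.36 and 58.7 CPM, and with LIF at 8.32, 3.89 and 14.6 CPM. The gap between transfectants was smallest with LIF, where L122A was 1.76-fold lower than EGFP (1.48 to 2.10).

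Actn1 codes for alpha-actinin 1, which crosslinks actin filaments and anchors them at adhesion sites (ENSMUSG00000015143, chromosome 12, 81268703 to 81361350, minus strand). Its level with RA was 53.8 CPM in L122A, 86.2 CPM in WT and 286 CPM in EGFP. The no-LIF libraries held 12.4, 18.97 and 74.3 CPM, and the LIF libraries 29.0, 16.2 and 57.8 CPM. It was the one member with a ratio of at least 2-fold downwards without LIF: L122A no-LIF was 2.33-fold lower than L122A LIF (2.01 to 2.71).

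**Figure D1:**
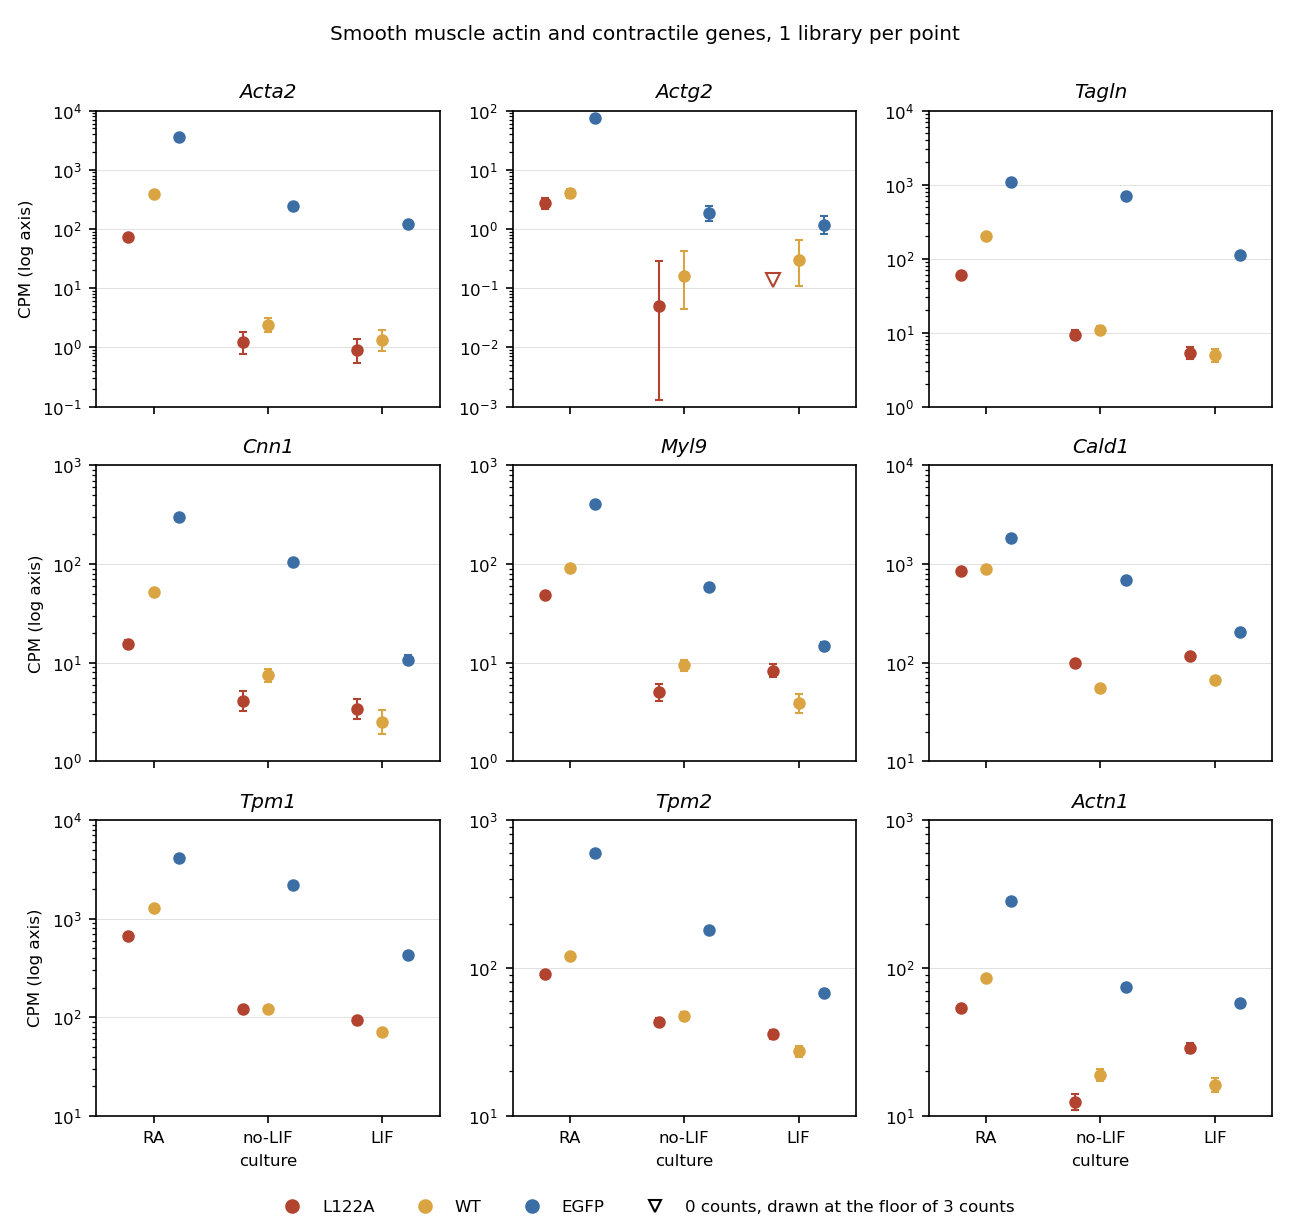
Level of each of the 9 genes in CPM on a log axis, by culture (RA, no-LIF, LIF) and transfectant (L122A, WT, EGFP), with 1 library per point and bars for the exact 95% counting interval; the open triangle is the library with 0 counts, drawn at 3 counts. EGFP RA is the highest point in all 9 panels, and the L122A and WT points without RA are the 4 lowest.

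The order of libraries was much the same for the 9 genes. EGFP RA was highest for 9 of 9. The 4 lowest places were held by L122A and WT without RA for every gene, and WT LIF was last for 5 of them. Counted from the highest, EGFP no-LIF had place 2 for 4 genes, place 3 for 3 and place 4 for 2, and WT RA had place 2 for 5 and place 3 for 4. EGFP LIF had place 4 for 3 genes and place 5 for 6. Over the 36 pairs of members, Pearson's r of log2 CPM across the 9 libraries ran between 0.879 and 0.986 with a median of 0.933, the highest for Tagln and Tpm1 and the lowest for Actg2 and Tagln. These libraries share the same cell line and design, so the correlations describe this set of 9 libraries.

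Each gene was also set against its close relatives per length, in FPKM, as the share of the summed family. The smooth muscle actins Acta2 and Actg2 made up 3.80%, 18.3% and 55.5% of the FPKM of 6 actin genes in L122A, WT and EGFP with RA. Their share was 0.162%, 0.239% and 10.3% without LIF and 0.0853%, 0.209% and 7.57% with LIF. In EGFP RA they therefore exceeded the nonmuscle actins Actb and Actg1, which held 34.3% and 8.27%. Myl9 held 12.8%, 21.4% and 40.3% of 3 regulatory light chain genes with RA, 1.85%, 3.75% and 12.0% without LIF, and 2.91%, 1.63% and 4.88% with LIF. Cnn1 held 4.20%, 12.2% and 35.4% of 3 calponin genes with RA, with 18.1% in EGFP no-LIF and at most 4.36% in the other 5 libraries.

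In both remaining families the members held at least 11.5% in each library. Tpm1 and Tpm2 held 39.4%, 43.2% and 55.5% of 4 tropomyosin genes with RA, 18.7%, 21.3% and 46.1% without LIF, and 16.2%, 14.4% and 36.3% with LIF. Actn1 held 18.0%, 36.0% and 61.1% of the sum of Actn1 and Actn4 with RA, 11.5%, 16.4% and 40.9% without LIF, and 21.5%, 16.3% and 35.3% with LIF. In all 5 families and all 3 cultures EGFP had the highest share. A share depends on the lengths the authors used and on how reads of near-identical genes were split.

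**Figure D2:**
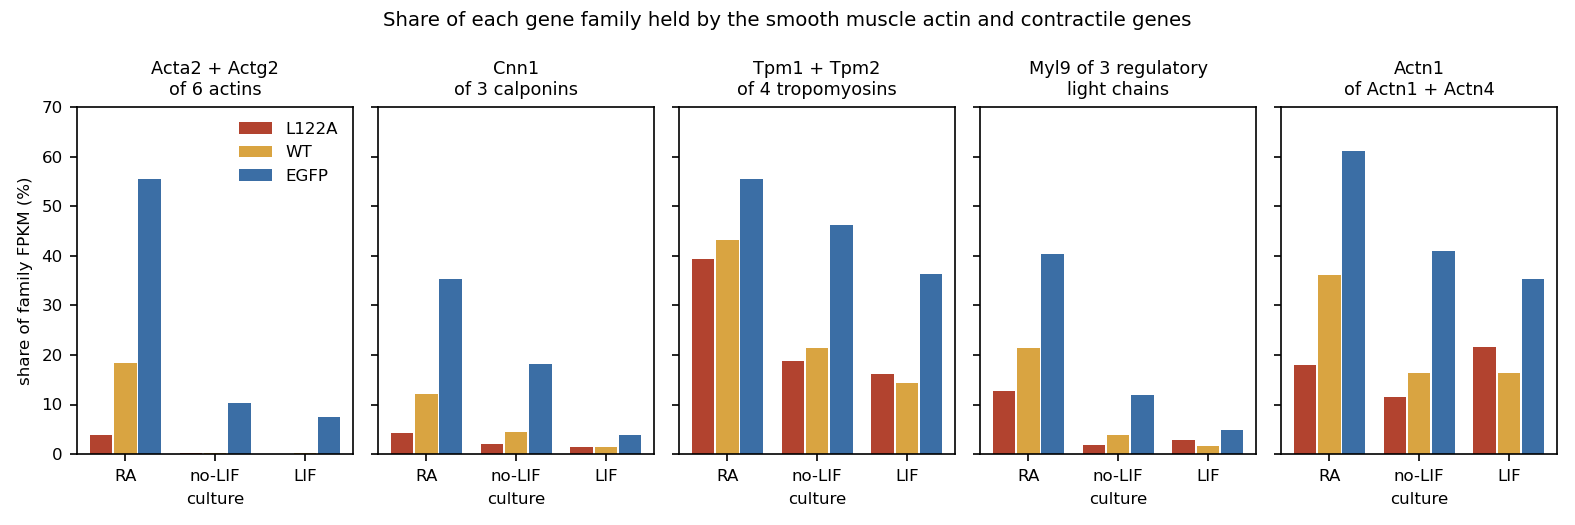
Share (%) of the summed FPKM of each family held by the genes named above each panel, by culture (RA, no-LIF, LIF) and transfectant (L122A, WT, EGFP), 1 library per bar. The smooth muscle actins reach 55.5% in EGFP RA against 3.80% in L122A RA, and at most 0.239% in the 4 Nanog libraries without RA.

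Markers of other cell types were summed in the same libraries. The 10 fibroblast and mesenchyme markers summed to 28.5 CPM in L122A, 65.1 CPM in WT and 433 CPM in EGFP with RA, 9.03, 14.6 and 40.2 CPM without LIF, and 20.6, 10.3 and 31.6 CPM with LIF. The sum was thus highest in EGFP in each culture, while of the defining markers Lum had 0 counts in 8 of 9 libraries and Fap in 7. Single markers differed from the sum: with LIF, Thy1, Pdgfrb and, at most at 0.148 CPM, Postn were lowest in EGFP. Thy1 stood at 11.7, 4.09 and 1.37 CPM with LIF and at 4.01, 5.40 and 2.25 CPM without LIF. The 8 pluripotent cell markers ran the other way between transfectants with RA, with sums of 574, 114 and 15.8 CPM. Their sums were 4377, 3932 and 1879 CPM without LIF and 3787, 5345 and 3139 CPM with LIF, so that EGFP was the lowest of each culture. Some of these markers departed from the sums. With LIF, Sox2 stood at 66.4, 58.7 and 86.0 CPM and Dppa5a at 561, 1307 and 699 CPM. Without LIF, Tdgf1 stood at 1060, 1494 and 1271 CPM. The other pluripotent markers of each culture were lowest in EGFP. The 7 pericyte markers summed to 37.3 CPM in L122A, 35.3 CPM in WT and 104 CPM in EGFP with RA. In the other 6 libraries their sums lay between 18.3 and 41.6 CPM. The 8 endothelial markers summed to between 27.4 and 45.6 CPM with RA and between 12.9 and 48.2 CPM in the other 6, with the defining marker Cdh5 at most at 1.88 CPM. Pecam1 alone made up 33.3, 26.7 and 27.2 CPM of the LIF sums of 48.2, 37.4 and 43.9 CPM in L122A, WT and EGFP. With RA it stood at 7.87, 3.23 and 2.09 CPM, so the other endothelial markers together were lower with LIF than with RA. The part of these cell types in the values of the 9 genes was not tested.

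The first comparison asked what RA changed across the 3 transfectants. It was fitted over all 9 libraries with culture and transfectant as additive factors by edgeR's quasi-likelihood test. The repeats are the levels of the other factor, so the error is the departure from additivity and not the spread of replicate cultures. Against LIF, 9 of 9 genes passed as higher at an adjusted p (Benjamini-Hochberg) below 0.05, where 24.5% of all genes tested were called higher, and their median log2 fold change was 3.73 beside 0.01 for all genes. Acta2 had the largest fold change (log2 6.64, SE 0.74, 99.8-fold) and Actn1 the smallest (1.82, SE 0.34, 3.54-fold). Actg2 stood at 5.44 (SE 0.57), Tagln at 4.23 (SE 0.68) and Tpm2 at 2.19 (SE 0.31). Against no-LIF, 9 of 9 were again past the threshold, where 22.6% of all genes were called higher, with a median of 2.53; 8 passed without WT RA, 7 without WT no-LIF and 6 when L122A no-LIF was left out. Genes with rRNA in their name took 4.30% to 4.72% of counts in the 3 RA libraries and 7.86% to 11.8% in the other 6, and the part of this in the result was not tested. The RA cultures also lacked LIF, so the comparison with LIF holds both changes. A difference in serum or puromycin, given for the LIF cultures only, cannot be told apart from them. The members were chosen on these values and nothing is read from their counts.

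Within single transfectants, the counts below are of genes whose CPM differed by 2-fold or more and reached 5 CPM in one of both libraries, with no test. In L122A, 7 of 9 members were higher with RA than with LIF by this rule, beside 15.5% of all genes. In WT 8 of 9 were, beside 19.1%, and in EGFP 9 of 9, beside 18%. The median log2 ratio (prior count 2) was 2.81 in L122A, 4.19 in WT and 3.31 in EGFP. For Acta2 the ratio of RA to LIF was 80.8-fold in L122A (52.2 to 133), 295-fold in WT (203 to 448) and 30.0-fold in EGFP (29.0 to 31.0), from LIF levels near 1 CPM in both Nanog transfectants and of 120 CPM in EGFP. For Cnn1 it was 4.58-fold in L122A (3.60 to 5.91), 20.7-fold in WT (15.7 to 27.9) and 27.9-fold in EGFP (24.97 to 31.3). WT had the largest ratio of the 3 for 5 genes (Acta2, Tagln, Cald1, Tpm1 and Actn1) and EGFP for Cnn1, Myl9 and Tpm2, while for Actg2 the L122A ratio is only a lower bound. Whether the RA response differed between the Nanog transfectants and EGFP was tested with L122A and WT as 2 libraries of a Nanog class: 0 of 9 members passed, beside 0.00714% of all genes, 1554 of which had an unadjusted p below 0.05. DESeq2 called 266 genes in this comparison. The member estimates ran from -1.49 (SE 1.31) for Actg2 to 2.80 (SE 1.36) for Acta2, with wide errors.

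Withdrawal of LIF without RA gave smaller values. Over the transfectants 0 of 9 members passed, beside 0.0143% of all genes called higher, with a median log2 fold change of 0.79. Of all genes, 1222 had an unadjusted p below 0.05, and DESeq2 called 278, among them 2 members. Tagln and Cnn1 had the largest estimates, both 1.70 (SE 0.62 and 0.58). In L122A, 0 of 9 members were at least 2-fold higher without LIF than with it, beside 2.06% of all genes. In WT 3 of 9 were (Tagln, Cnn1 and Myl9), beside 4.04%, and in EGFP 7 of 9, beside 5.31%. The median log2 ratio was 0.27 in L122A, 0.79 in WT and 1.75 in EGFP. The test of this difference between classes passed for 0 of 9 members, beside 0% of all genes, of which 1117 had an unadjusted p below 0.05, while DESeq2 called 121. The median of the members in that test was -1.70, and the largest were Cnn1 at -2.32 (SE 1.03) and Cald1 at -1.99 (SE 0.59).

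**Figure D3:**
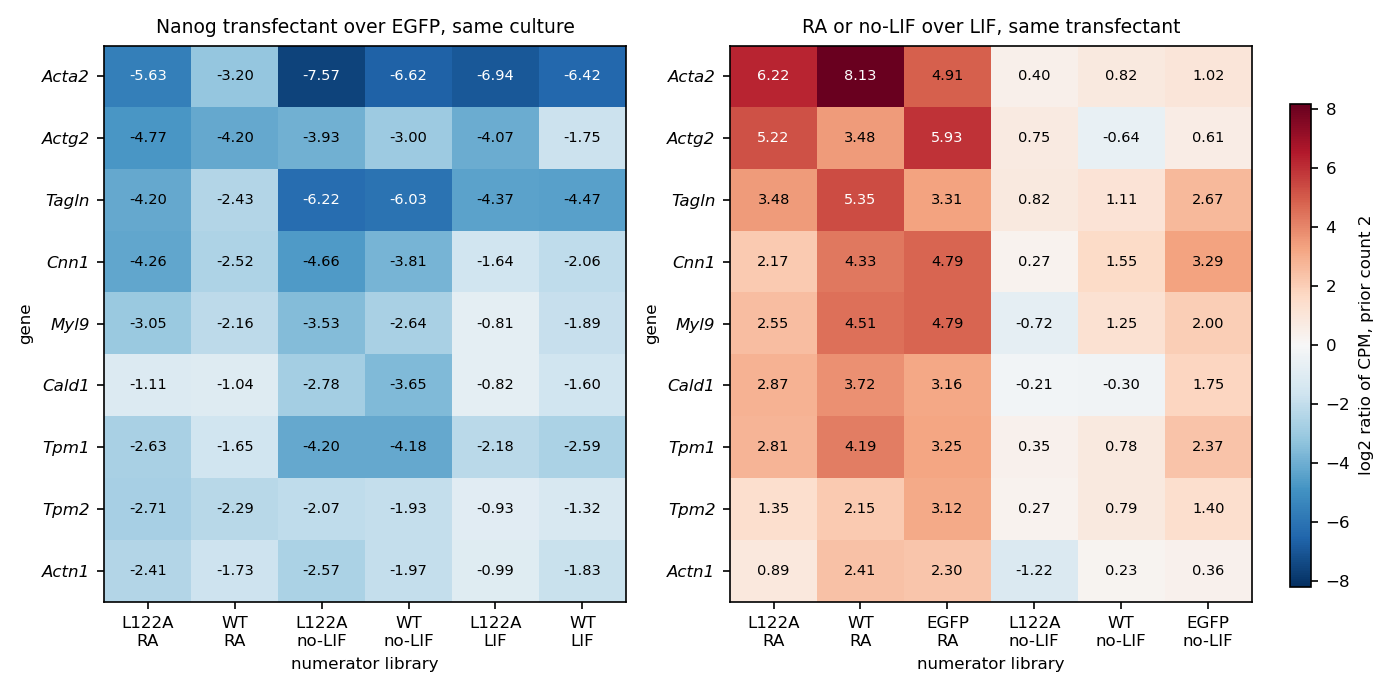
Log2 ratio of CPM (prior count 2; rows are genes, columns name the numerator library) of each Nanog transfectant over EGFP in the same culture (left) and of RA or no-LIF over LIF in the same transfectant (right). Every cell on the left is below 0, from -7.57 to -0.81; on the right the 3 RA columns are all above 0 and for 8 of 9 genes the largest no-LIF value, up to 3.29, is in EGFP; for Actg2, on few counts, it is 0.75 in L122A and 0.61 in EGFP.

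The other factor of the design was the construct. Across the 3 cultures, 7 of 9 members were past the threshold as lower in L122A, where 1.99% of all genes were called lower, and their median log2 fold change was -3.08 beside 0.01 for all genes. Acta2 stood at -7.01 (SE 0.75), Tagln at -5.11 (SE 0.70), Actg2 at -4.78 (SE 0.57) and Cnn1 at -3.60 (SE 0.60). Tpm1, Actn1 and Tpm2 followed at -3.08 (SE 0.51), -1.95 (SE 0.34) and -1.92 (SE 0.31), and the members that did not pass were Myl9 (-2.43, SE 0.51) and Cald1 (-1.68, SE 0.48). In WT, 2 of 9 members passed as lower (Acta2 at -5.39, SE 0.70, and Actg2 at -3.48, SE 0.54), beside 0.286% of all genes, with a median of -2.85. Both comparisons share the EGFP libraries. The count for L122A was 0 without L122A no-LIF, 2 without L122A RA, 4 without EGFP no-LIF or without WT LIF, and 5 without WT no-LIF. The count for WT was 0 without L122A no-LIF, WT no-LIF, EGFP no-LIF or WT LIF, 5 without EGFP RA or EGFP LIF and 6 without L122A LIF. Since the labels name no separate lines per construct, an effect of Nanog and a trait of the EGFP cells cannot be told apart.

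Culture by culture the sign was the same for every member: each of the 9 genes was lower in L122A and in WT than in EGFP in all 3 cultures. With RA, 9 of 9 were at least 2-fold lower in L122A, beside 8.35% of all genes, and 9 of 9 in WT, beside 4.99%. Cald1 lay nearest that limit and depended on the scaling. In FPKM, which scales by total counts, it stood at 138 in L122A, 141 in WT and 266 in EGFP, less than 2-fold apart. Without LIF, 8 of 9 were in L122A, beside 7.7%, and 8 of 9 in WT, beside 5.92%; the exception was Actg2, whose 1.83 CPM in EGFP no-LIF lay under the minimum of 5 CPM. With LIF, 4 of 9 were in L122A (Acta2, Tagln, Cnn1 and Tpm1), beside 3.76%, and 8 of 9 in WT, beside 3.69%. This L122A count depended on the scaling too. In FPKM, Actn1 stood at 7.46 in L122A LIF and 16.9 in EGFP LIF, and Tpm2 at 11.27 and 24.45, more than 2-fold apart. Cald1 stood at 13.78 and 27.74 and Myl9 at 6.55 and 13.11, just past 2-fold. The median log2 ratio to EGFP was -3.05 in L122A and -2.29 in WT with RA. It was -3.93 in L122A and -3.65 in WT without LIF, and -1.64 in L122A and -1.89 in WT with LIF. Tagln showed how far apart the classes stood without LIF: L122A was 75.3-fold lower (65.2 to 87.6) and WT 65.7-fold lower (58.2 to 74.5) than EGFP.

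The difference between L122A and WT was smaller. Over the cultures 0 of 9 members passed, beside 0% of all genes by edgeR, where 614 genes had an unadjusted p below 0.05 and DESeq2 called 51. The estimates ran from -1.63 (SE 0.65) for Acta2 to 0.47 (SE 0.46) for Cald1. With RA, 3 of 9 members were at least 2-fold lower in L122A than in WT, beside 2.79% of all genes: Acta2 by 5.38-fold (5.15 to 5.61), Tagln by 3.42-fold (3.25 to 3.59) and Cnn1 by 3.35-fold (3.04 to 3.70). All 9 members were lower in L122A RA than in WT RA, down to a 1.05-fold difference for Cald1 (1.03 to 1.07). With LIF the order was the other way for most: 7 of 9 members had more CPM in L122A than in WT, and Acta2 and Actg2 had fewer; the intervals of Acta2, Tagln and Cnn1 included a ratio of 1. No replicate tells these differences from the spread between cultures.

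The remaining genes of the machinery were read from lists written from general knowledge. These lists were chosen with earlier results of these data known, so their counts and adjusted p-values are no independent support. The counts for RA against LIF that follow stand beside 24.5% of all tested genes called higher and 23.8% called lower. Against LIF, 10 of 11 tested genes of a smooth muscle restricted list rose with RA. Pgm5, a phosphoglucomutase-like protein of muscle adhesion sites, rose most (log2 7.15, SE 0.82, edgeR adjusted p = 5.73e-04). Myh11, the smooth muscle myosin heavy chain, rose 18.6-fold (log2 4.22, SE 0.98, edgeR adjusted p = 0.0088) and lost its call without WT LIF (3.78). Myh11 stood at 1.38 CPM in L122A, 4.20 CPM in WT and 22.5 CPM in EGFP with RA, and at most 0.940 CPM in the 6 other libraries. Myocd, which codes for the coactivator myocardin, stood at 1.97, 6.99 and 9.38 CPM with RA and at most 1.40 CPM elsewhere. Ppp1r14a, an inhibitor of myosin phosphatase, was the one gene that did not pass, at 1.46, 1.57 and 2.12 CPM with RA.

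Nonmuscle relatives of the members rose with RA for 8 of 11 genes, among them the nonmuscle myosin heavy chains Myh10 (log2 3.15, SE 0.29, edgeR adjusted p = 2.95e-04) and Myh9 (2.58, SE 0.26, edgeR adjusted p = 3.92e-04). Of the striated muscle list 3 rose and 3 fell of 10 tested, shares near those of all genes, and 1 rose when no filter was used. The cardiac actin Actc1 rose (4.28, SE 0.85, edgeR adjusted p = 0.00489), as did the skeletal actin Acta1 (4.49, SE 1.12, edgeR adjusted p = 0.0125), which lost its call without WT RA (4.13). Actc1 stood at 14.6, 22.7 and 120 CPM with RA, 0.254, 2.21 and 89.4 CPM without LIF, and 0.768, 0.592 and 18.4 CPM with LIF, in the order L122A, WT, EGFP. Its EGFP libraries, like those of the smooth muscle actins, were the highest of each culture; Actc1 is identical to Acta2 at 82.5% of coding positions, so their reads may be split uncertainly too. The fast alpha-actinin Actn3 (-2.96, SE 0.57, edgeR adjusted p = 0.0039) and the embryonic myosin Myh3 (-3.26, SE 0.77, edgeR adjusted p = 0.00884) fell.

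Among genes that act on SRF, 8 of 12 rose with RA and 0 fell. Mkl2, an MRTF, rose 5.31-fold (log2 2.41, SE 0.22, edgeR adjusted p = 3.23e-04) and Rock2, a kinase that acts on myosin and actin, rose 4.57-fold (2.19, SE 0.21, edgeR adjusted p = 3.23e-04). Srf itself stood between 12.0 and 15.1 CPM with RA and between 5.87 and 13.1 CPM in the other 6 libraries. All 11 tested genes of a list of other SRF and MRTF targets rose, led by Tgfb1i1, a focal adhesion protein also named Hic-5 (5.12, SE 0.63, edgeR adjusted p = 7.87e-04), and Fhl2, a LIM-domain adaptor (3.96, SE 0.39, edgeR adjusted p = 3.74e-04). Of the list of TGF-beta signalling, a pathway known to induce Acta2 in mesenchymal cells, 9 of 11 rose. The ligand genes Tgfb2 (4.66, SE 0.48, edgeR adjusted p = 4.14e-04) and Tgfb3 (4.51, SE 0.72, edgeR adjusted p = 0.00176) rose most, with Tgfb3 at 4.99 CPM at the highest. None of these lists had a gene past the threshold for LIF withdrawal, and the smallest p among them was that of Ctgf, a matricellular SRF and YAP target (1.502, SE 0.34, edgeR adjusted p = 0.255).

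The list counts between transfectants stand beside 1.99% of all genes called lower in L122A and 0.286% in WT. Of the SRF and MRTF targets, 9 of 11 fell in L122A against EGFP, with a median log2 fold change of -2.31 beside 0.01 for all genes. In WT 4 of 11 fell against EGFP, with a median of -1.47 beside 0.0028. In L122A Fhl2 fell by 4.29 (SE 0.40, edgeR adjusted p = 0.00668) on the log2 scale and Ctgf by 3.09 (SE 0.35, edgeR adjusted p = 0.00739). In WT Ctgf fell by 2.76 (SE 0.35, edgeR adjusted p = 0.0266) and Fhl2 by 2.64 (SE 0.36, edgeR adjusted p = 0.0313). Fhl2 stood at 3.79, 10.7 and 49.5 CPM with RA, 0.152, 0.817 and 7.76 CPM without LIF, and 0.226, 0.690 and 3.72 CPM with LIF, so that EGFP was highest in each culture. The L122A count was 3 in the 6 libraries compared, 2 without L122A no-LIF, 3 without EGFP no-LIF, 4 without L122A RA and 5 without WT no-LIF or WT LIF. The WT count was 1 under total-count scaling, 2 by limma, 7 with no filter and 10 by DESeq2, and it was 0 without WT no-LIF, EGFP no-LIF or WT LIF, 1 without WT RA and 2 without L122A LIF. Ctgf lost its L122A call without L122A no-LIF (-2.82) and its WT call without WT RA (-2.83), WT no-LIF (-3.13), EGFP no-LIF (-2.80) or WT LIF (-2.39). Fhl2 lost its WT call without WT RA (-2.75), WT no-LIF (-2.49), EGFP no-LIF (-2.22), L122A LIF (-2.64) or WT LIF (-2.70).

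Of the TGF-beta list the ligand gene Tgfb2 fell in both Nanog transfectants. It fell by 4.86 (SE 0.47, edgeR adjusted p = 0.00668) on the log2 scale in L122A, a call that held without each library in turn, and by 4.57 (SE 0.46, edgeR adjusted p = 0.0244) in WT, a call lost without WT no-LIF (-4.08) or WT LIF (-4.37). Tgfb2 stood at 8.99, 20.0 and 222 CPM with RA, 1.47, 0.736 and 40.5 CPM without LIF, and 0.452, 0.345 and 14.2 CPM with LIF. Of the smooth muscle restricted list 0 of 11 passed against EGFP for either Nanog transfectant, with medians of -1.04 in L122A and -0.85 in WT. Its smallest p was that of Csrp1, a LIM-domain protein of actin filaments (-2.25 in L122A, SE 0.52, edgeR adjusted p = 0.062, and -2.09 in WT, SE 0.51, edgeR adjusted p = 0.156). Between L122A and WT, 0 genes of any list passed.

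In the lists of relatives and regulators, 5 genes passed against EGFP in L122A and 0 in WT. Of all genes, 1.99% were called lower and 0.893% higher in L122A. The nonmuscle calponin gene Cnn2 (-1.89, SE 0.36, edgeR adjusted p = 0.0358) and Myh9 (-1.21, SE 0.25, edgeR adjusted p = 0.0441) fell, 2 of 11 nonmuscle relatives. Of 10 striated muscle genes Actc1 fell (-5.10, SE 0.88, edgeR adjusted p = 0.03) and the atrial myosin light chain gene Myl4 rose (3.34, SE 0.61, edgeR adjusted p = 0.0347). Of 12 SRF regulators Rock2 fell (-1.12, SE 0.20, edgeR adjusted p = 0.0291). The nonmuscle count was 0 under total-count scaling or in the libraries compared, 1 by limma, 5 with no filter and 7 by DESeq2. The striated count was 0 each way in the libraries compared, 2 higher and 0 lower with no filter, and 3 higher and 2 lower by DESeq2. The regulator count was 0 under total-count scaling, by limma or in the libraries compared, and 2 with no filter or by DESeq2. Each of these calls also depended on single libraries. All 5 were lost without L122A RA, L122A no-LIF or WT no-LIF, where the values of Cnn2 lay between -1.85 and -1.56 and those of Rock2 between -1.21 and -0.94. Without EGFP no-LIF all but Actc1 were lost, with Myl4 at 3.13 and Myh9 at -0.95. Without L122A LIF the calls of Myh9 (-1.40), Actc1 (-5.45), Myl4 (3.48) and Rock2 (-1.25) were lost. Without WT LIF those of Cnn2 (-1.91), Myh9 (-1.22), Actc1 (-5.06) and Rock2 (-1.13) were lost, and without WT RA those of Myh9 (-1.21), Actc1 (-4.87) and Rock2 (-1.14). Myh9 (-1.27) and Actc1 (-5.09) were also lost without EGFP LIF. In WT the smallest p of these lists were those of Cnn2 (-2.04, SE 0.36, edgeR adjusted p = 0.0695), Rock2 (-1.08, SE 0.20, edgeR adjusted p = 0.0717) and Actc1 (-4.37, SE 0.84, edgeR adjusted p = 0.0866).

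**Figure D4:**
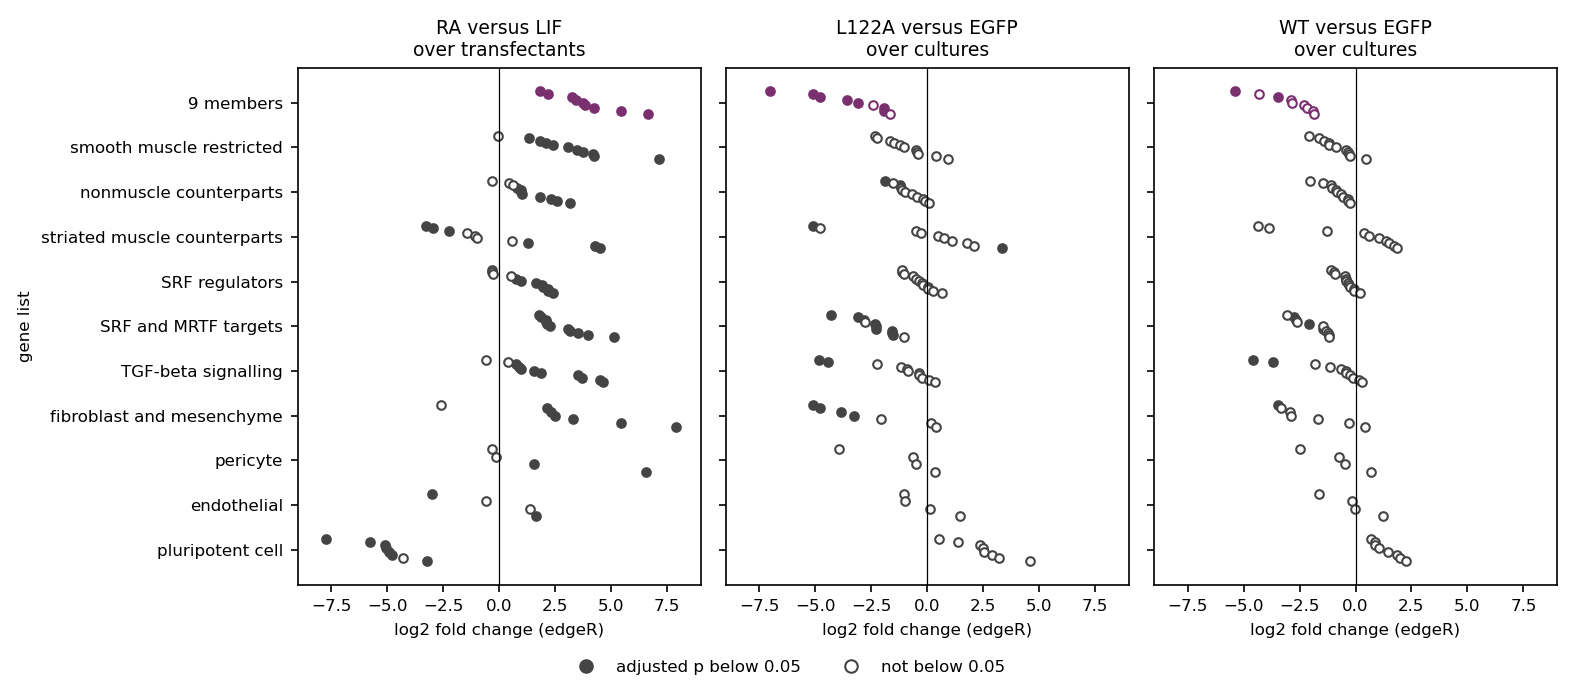
Log2 fold change by edgeR of each tested gene (1 point each) of the 9 members and of 10 gene lists, for RA versus LIF, L122A versus EGFP and WT versus EGFP; filled points have an adjusted p below 0.05. All 9 members lie right of 0 for RA and left of 0 in both transfectant comparisons, as do all 11 SRF and MRTF targets.

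The marker lists of other cell types, likewise chosen with earlier results of these data known, were read in the same fits. With RA, 6 of 7 tested fibroblast markers rose, led by Col3a1, a fibrillar collagen gene (log2 7.92, SE 0.54, edgeR adjusted p = 1.45e-04). Of 4 pericyte markers 2 rose, Rgs5 (6.56, SE 1.16, edgeR adjusted p = 0.00292) and Notch3 (1.58, SE 0.27, edgeR adjusted p = 0.00241). Of 4 endothelial markers Eng rose (1.65, SE 0.32, edgeR adjusted p = 0.00387) and Pecam1 fell (-2.99, SE 0.63, edgeR adjusted p = 0.00614), and by limma or without L122A LIF 2 of the 4 rose. By limma 1 of the pericyte markers rose. Of the 8 pluripotent markers 7 fell, led by Tdgf1, a Nodal co-receptor gene (-7.74, SE 0.45, edgeR adjusted p = 9.66e-05), against 2 with no filter. Between transfectants, 1.99% of all genes were called lower in L122A and 0.286% in WT. In L122A 4 of 7 fibroblast markers fell against EGFP, against 0 by limma or without L122A no-LIF and 1 without L122A RA. In WT 1 of 7 fell, Col3a1 (-3.46, SE 0.46, edgeR adjusted p = 0.0287), against 0 by limma, 2 with no filter or without L122A RA or L122A LIF, 3 in the libraries compared and 5 by DESeq2. That call was lost without WT RA (-4.68), EGFP RA (-3.32), WT no-LIF (-3.28), EGFP no-LIF (-3.53) or WT LIF (-3.34). No pericyte, endothelial or pluripotent marker passed between transfectants.

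Genes outside the set were ranked by likeness to the members' mean profile over the 9 libraries, as a description, among 10044 genes whose CPM averaged 5 or more. The 8 most alike were Clcn5 (Pearson's r 0.996), Pcdh7 (0.995), Phldb2 (0.992), Prss23 (0.992), Lrrk1 (0.991), Nes (0.991), Zyx (0.989) and Pdlim7 (0.989). Phldb2, which codes for a protein of microtubule anchoring at adhesion sites, stood at 69.2, 140 and 487 CPM with RA, 8.11, 8.26 and 104 CPM without LIF, and 6.24, 4.58 and 27.5 CPM with LIF. Zyx and Pdlim7 belong to the list of SRF and MRTF targets. Most like Acta2 alone were Csf1 (0.994), Prss23 (0.992), Igf2 (0.987), Nes (0.984), Clcn5 (0.983), Tnc (0.981), Fhl2 (0.979) and Anxa3 (0.978). Csf1, the gene of a macrophage growth factor, stood at 6.88, 14.2 and 62.6 CPM with RA, 0.152, 0.327 and 16.4 CPM without LIF, and 0.181, 0.148 and 6.10 CPM with LIF. Of the 10044 genes compared, 461 reached an r of 0.9 with the mean profile and 331 with Acta2. The 8 named for each profile were thus a small part of those with a high r.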

How the data were processed

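RNA of 9 samples was sequenced, 1 library per group. The submitters' processing notes name TopHat2 2.0.11 and the mm9 build. Which program counted reads, and whether by strand, is not given in the sources used here. Gene counts were made by the authors and deposited without normalization, per the file headers. The deposited FPKM values were normalized by the authors, per the file headers, and in every library 100% of genes above 5 FPKM equalled the count over length and total within 1%. The LIF columns carry a name that is in no label and were assigned by elimination, and columns named L122 were read as L122A.

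Coordinates of genes are those of the file (mm9), and promoter windows come from RefSeq in GRCm38.p6. Genes reaching 1 CPM in 3 or more libraries were tested with edgeR 4.0.16 in R 4.3.3 (TMM factors, robust quasi-likelihood fit, Benjamini-Hochberg adjustment over 13996 genes, threshold 0.05). The additive model of culture and transfectant had 4 residual degrees of freedom and a biological coefficient of variation of 0.325; the model of culture by class (Nanog or EGFP) had 3 and 0.287. Each SE was derived from the log2 fold change and its F statistic. Single libraries were compared as ratios with exact (Clopper-Pearson) 95% intervals for counting error and, on the log2 scale, after adding a prior count of 2. Alternatives were RLE factors, total-count scaling, no filter, DESeq2 1.42.0, limma 3.58.1 on log2(FPKM + 1), the libraries of the compared levels alone, each library left out, and a prior count of 0.5; their use on the gene lists was added after the data had been seen. The 9 members and all gene lists were chosen with earlier results of these data known. Of 107 list genes, Filip1l had 2 rows and was left out, Myl12a was matched by its identifier, and Myl6 had at most 2 counts in any library. Named are the 9 members, per list the called genes with the largest changes or else the smallest p, and the 8 genes most like each profile. Single genes named outside this rule (Myocd, Ppp1r14a, Srf, Lum, Fap, Thy1, Pdgfrb, Postn, Cdh5, Sox2) were chosen after their values were seen. Drawing used Python 3.11.15 with matplotlib 3.10.9. The results of 1 gene of the TGF-beta list are not reported here.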

Additional observations from a re-analysis of the deposited data

Results flagged for a closer look

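Cald1 had ratios of opposite sign on LIF withdrawal in the 2 classes of cells, with falls of less than 2-fold in L122A and WT. The log2 ratio of no-LIF to LIF (prior count 2) was -0.21 in L122A and -0.30 in WT, against 1.75 in EGFP. With 1 library per combination the classes were compared by edgeR's quasi-likelihood test over all genes, where the difference was -1.99 (SE 0.59) and did not pass the threshold. No outlier check was possible, since each group holds 1 library.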

How the results depend on the processing

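No paired analysis was possible because each combination of transfectant and culture is 1 library and no replicate numbers exist to block on; the additive model already holds the other factor of the design as a term. All 9 members stayed past the threshold for RA against LIF under every alternative tried, and against no-LIF under RLE factors, total-count scaling, DESeq2 and limma, with 7 without the filter and 8 in the 6 libraries compared. No called value changed its sign under the alternatives tried. Under total-count scaling the median log2 fold change of all genes was 0.39 for RA against LIF (0.01 in the main analysis), 0.43 for RA against no-LIF (0.02), and 0.42 and 0.14 for the RA and no-LIF response differences (0.02 and 0.03). With it the calls split into 4503 higher and 1945 lower against LIF, beside 3423 and 3328 in the main analysis, and into 4456 and 1679 against no-LIF, beside 3168 and 3067. For L122A against EGFP the split was 53 and 200, beside 125 and 278. For LIF withdrawal (10 genes, 0 members in the main analysis) the genes called numbered 2 by total counts, 37 without the filter, 278 by DESeq2 (2 members), 4 by limma and 90 in the libraries compared alone. For L122A against EGFP (403 genes, 7 members) they numbered 253 by total counts, 1438 by DESeq2, 217 by limma and 82 in the libraries compared, and the members called were 4 without the filter and 3 in the libraries compared. For WT against EGFP (45 genes, 2 members) they numbered 22 by total counts (1 member), 138 without the filter, 609 by DESeq2 (9 members), 19 by limma and 99 in the libraries compared (8 members). For L122A against WT (0 genes) they numbered 1 without the filter, 51 by DESeq2 and 4 in the libraries compared. The RA response difference (1 gene, 0 members) gave 684 without the filter (2 members), 266 by DESeq2 and 20 by limma (1 member). The no-LIF response difference (0 genes) gave 403 without the filter (5 members) and 121 by DESeq2. The cause of these shifts was not tested. With each library left out in turn, genes called ran from 4232 to 6680 (RA against LIF), 3615 to 6314 (RA against no-LIF), 0 to 44 (no-LIF against LIF), 24 to 558 (L122A against EGFP), 0 to 148 (WT against EGFP), 1 to 166 (RA response) and 0 to 24 (no-LIF response). Members called ran from 6 (without L122A no-LIF) to 9 for RA against no-LIF, 0 to 8 for L122A against EGFP, 0 to 6 for WT against EGFP, and 0 to 1 (without L122A RA) for the RA response. The response differences could not be fitted without EGFP LIF, EGFP RA (RA response) or EGFP no-LIF (no-LIF response). Of the members' fitted values under alternatives, 926 kept their side of the threshold, 48 gained a call and 52 lost it. For the named list genes these numbers were 1438, 38 and 114. Of the members' single-library log2 ratios under alternatives, 389 were counted as the same and 97 as moved. In FPKM, Acta2 stood at 68.76 in L122A RA, 3031.87 in EGFP RA and 94.03 in EGFP LIF. The FPKM ratio of EGFP RA to L122A RA lay below the counting interval of 47.5 to 51.4. That of EGFP RA to EGFP LIF lay above the interval of 29.0 to 31.0. Depth limits Actg2 most, with 0 to 6 counts in the 4 Nanog libraries without RA.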
